A study of Mus musculus with 15 samples.

Results

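This comparison set the ileal epithelium of adult mice with a conditional knockin of Gata4 (cKI) against the jejunal epithelium of adult wild-type CD1 mice. It asked which transcripts of the jejunum are still short of their jejunal level in an ileum to which Gata4 was added. Its members were chosen by title alone, and they are the 3 arrays titled cKI ileum and the 3 titled jejunum, 6 of the 15 arrays in the series. The other 9 arrays, 3 in each group, held wild-type CD1 ileum, the ileum of adult controls, and jejunum labelled as Gata4 conditional knockout (cKO). All were Affymetrix Mouse Gene 1.0 arrays of total RNA from isolated epithelial cells, and the values are the authors' deposited log2 values, with array medians from 4.82 to 5.0. The labels name neither the Cre driver nor the promoter of the added Gata4, and they give no strain for the cKI, cKO and control mice. Whether the arrays of a group hold RNA of different animals is not said. A p-value here therefore reflects the variation among these arrays, which may be technical, and their number limits the precision.

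The compared groups are labelled as different sets, wild-type CD1 and cKI, so genotype, gut region and set all differ between them. Whether the sets differ in strain, source of the mice, preparation or array batch is not given. A set-adjusted difference was therefore computed as cKI ileum minus wild-type jejunum, less control ileum minus wild-type ileum. It takes out what the controls' ileum and the wild-type ileum differ by, and assumes that the sets differ alike in both regions. Differences are on the log2 scale with the standard error from limma, n = 3 arrays per group, and a gene was called at an adjusted p below 0.05 (Benjamini-Hochberg over all genes tested).

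GATA4 is a zinc finger transcription factor that binds GATA motifs in enhancers and promoters of enterocyte genes. In the mouse small intestine it is made in the duodenum and jejunum and is nearly lost toward the distal ileum, where the related factors GATA5 and GATA6 are still made. The jejunal enterocyte digests and takes up sugars, fat, folate and peptides, whereas the ileal enterocyte recovers bile acids through the apical transporter encoded by Slc10a2 and the cytosolic carrier encoded by Fabp6. Lct (lactase), Fabp1 (the liver-type fatty acid binding protein) and Cd36 (a fatty acid translocase) are jejunal markers.

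Of 11784 genes tested, 3001 (25.5%) were called higher in cKI ileum than in wild-type jejunum and 1923 (16.3%) lower, with 508 and 505 of them at least 2-fold. In the set-adjusted contrast 333 genes (2.83%) were called higher and 755 (6.41%) lower. These shares of all genes are the background for the list counts below. Of the genes, 284 were called higher and 609 lower in both contrasts, while 2 were called lower but set-adjusted higher and 6 the reverse. Control and wild-type ileum also differed widely: 2275 genes (19.3%) were higher and 1015 (8.61%) lower in control than in wild-type ileum. The cause of these differences was not tested, and the set adjustment takes off all of them. The clearest such difference lay in small nucleolar RNAs. Snord22 read 5.5, 4.79 and 5.09 on the cKI ileum arrays and 5.21, 4.62 and 5.24 in control ileum, but 10.53, 10.47 and 10.58 in wild-type jejunum. Wild-type ileum read 10.64, 10.20 and 10.72, and the arrays labelled cKO jejunum 10.47, 10.60 and 10.83. Of 49 small nucleolar RNAs tested, 27 were lower and 6 higher in cKI ileum than in wild-type jejunum, 27 were lower and 5 higher in control than in wild-type ileum, and 0 were called by limma after the set adjustment (3 higher and 1 lower at an unadjusted p below 0.05, and 2 higher and 0 lower with array weights). Arrays within a group correlated by at least 0.97 over genes.

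The Gata4 signal itself remained below the wild-type jejunal level. Its transcript cluster, 10420747, read 8.02, 8.43 and 8.17 in cKI ileum and 9.68, 9.45 and 9.47 in wild-type jejunum. All 3 cKI arrays were below all 3 jejunal arrays, a difference of -1.33 ± 0.185 (adjusted p = 6.64e-05, 2.51-fold lower). The control ileum read 6.71, 7.22 and 6.53 and the wild-type ileum 5.99, 5.43 and 5.39, so the knockin ileum lay between its own control and the jejunum. Gata4 in cKI ileum was 2.61-fold above control ileum (1.38 ± 0.185, adjusted p = 0.00453). Control ileum was itself higher than wild-type ileum, and the set-adjusted shortfall from jejunum was -2.55 (adjusted p = 3.23e-05). On the arrays labelled cKO jejunum Gata4 read 9.72, 9.88 and 9.93, not below wild-type jejunum. Whether the cluster's probes lie in the deleted part is not given in the sources used here, so those arrays are named by their label only. Whether the probes cover the whole added Gata4 transcript is not given either. The cKI signal may therefore not measure all of the added Gata4.

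The other intestinal GATA factors had levels close to jejunum. Gata6 read 9.38, 9.58 and 9.52 in cKI ileum and 9.60, 9.65 and 9.37 in wild-type jejunum, with overlapping groups and a 95% interval of the difference from -0.26 to 0.16. For Gata5 the difference was -0.18 ± 0.181, with an interval from -0.56 to 0.21. Both intervals lie inside 2-fold. Set-adjusted, Gata6 was lower, at -0.61 (adjusted p = 0.0133), where the ileal means were 8.75 in wild type and 9.31 in control.

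Among 30 tested intestinal transcription factors, 10 were lower and 5 higher in cKI ileum than in wild-type jejunum, with a median difference of -0.16 against 0.09 over all genes, and 8 were lower and 2 higher after the set adjustment. Onecut2, a homeodomain factor of the proximal intestine, stood apart. Its values were 5.81, 5.40 and 5.54 in cKI ileum and 8.74, 9.21 and 9.08 in wild-type jejunum, 10.7-fold lower (-3.42 ± 0.168, adjusted p = 3.79e-09). Onecut2 in control ileum read 5.66, 5.94 and 5.79, so the knockin arrays overlapped control ileum and not jejunum. Creb3l3, a membrane-bound factor of lipid metabolism, was lower, at -2.92 ± 0.403, and Nr1i3, the xenobiotic receptor CAR, at -1.49 ± 0.198. Hnf4a, the pan-intestinal nuclear receptor, did not pass, at 0.05 ± 0.117 with an interval from -0.20 to 0.30. Osr2, a zinc finger factor, was higher by 1.06 ± 0.156 and Klf5, a crypt factor, by 0.82 ± 0.109.

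**Figure D1:**
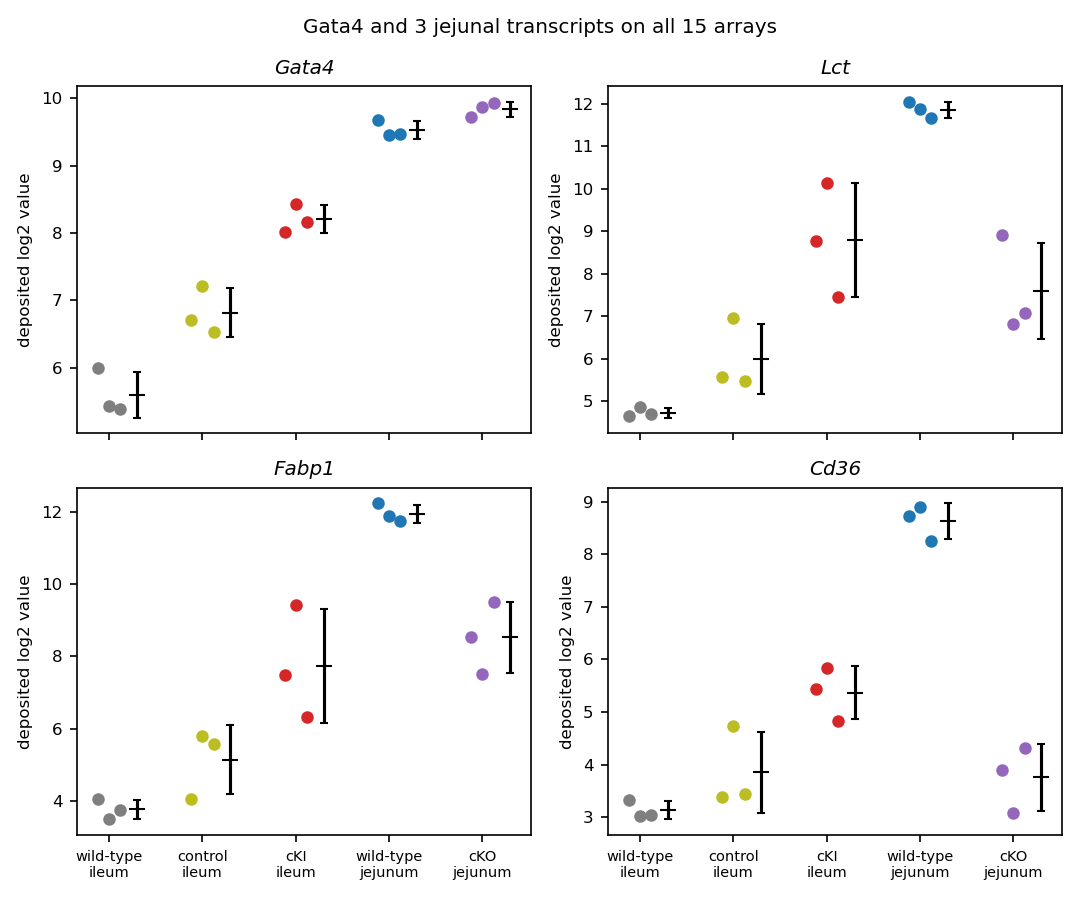
Deposited log2 values of Gata4, Lct, Fabp1 and Cd36 on each array of the 5 groups, 1 point per array with a black mark and bar beside them at the group mean ± SD (n = 3). For each gene the 3 cKI ileum points lie below the 3 wild-type jejunum points, and Gata4 in cKI ileum (8.02 to 8.43) lies above control ileum (6.53 to 7.22).

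Of 24 jejunal markers, all of them tested, 22 were lower in cKI ileum than in wild-type jejunum and 0 higher, against 16.3% lower over all genes. Their median difference was -3.21, and -3.50 after the set adjustment, where 20 were lower. The exceptions were Apoa5, at -0.05 ± 0.153, and Npc1l1, the sterol uptake transporter, at -0.01 ± 0.265 with an interval from -0.58 to 0.56. Both of these intervals lie within 2-fold. This list, like the other lists here, was chosen with earlier results of these data known. Its count is therefore a description and not an independent check.

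Lct (cluster 10357418) read 8.78, 10.13 and 7.45 in cKI ileum and 12.04, 11.88 and 11.66 in wild-type jejunum. It was 8.41-fold lower (-3.07 ± 0.596, adjusted p = 0.000904), while all 3 knockin arrays exceeded the control ileum, at 5.56, 6.95 and 5.47. The rise over control was 2.79 ± 0.596 (adjusted p = 0.0475), just under the threshold and not refitted with arrays left out. Its standard error is pooled over the 5 groups. The SD was 1.34 in cKI ileum and 0.83 in control ileum, but 0.11 in wild-type ileum and 0.19 in wild-type jejunum. On these arrays the lactase transcript thus lay above control and short of jejunum. The 3 knockin arrays spread widely, and the difference from jejunum was -2.40 without cKI array 3 and -3.75 without cKI array 2.

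Fabp1 (cluster 10538965) showed the same order of arrays, at 7.47, 9.41 and 6.31 in cKI ileum against 12.23, 11.89 and 11.75 in wild-type jejunum, 18.7-fold lower (adjusted p = 0.000141). The Fabp1 difference of -4.22 was -5.07 without cKI array 2 and -3.51 without cKI array 3. Control ileum read 4.05, 5.79 and 5.57, and the knockin's difference from control, 2.59 ± 0.645, did not pass (adjusted p = 0.0855). Cd36 (cluster 10528207) read 5.43, 5.84 and 4.83 in cKI ileum and 8.74, 8.91 and 8.26 in wild-type jejunum, 9.62-fold lower (adjusted p = 1.07e-05). Array 2 was the highest and array 3 the lowest of the knockin for Lct, Fabp1, Cd36 and Apoa4. Set-adjusted, Lct, Fabp1 and Cd36 were lower, at -4.34, -5.60 and -3.99 (adjusted p = 0.00445, 0.00132 and 0.000237).

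The sequences just upstream of Lct, Fabp1 and Slc2a2, which encodes the glucose transporter GLUT2, are shown because these are leading jejunal genes that stayed short. Those of Fabp6 and Slc10a2 are shown for the ileal genes described further on. Each is the 250 bases before the annotated start, 5′ to 3′ on the gene's strand, from RefSeq (GRCm38.p6), with capitals on matches, on either strand, to the GATA motif in the form AGATAA or the form AGATAG or the form TGATAA or the form TGATAG.
Lct, chr1:128328319-128328568, minus strand: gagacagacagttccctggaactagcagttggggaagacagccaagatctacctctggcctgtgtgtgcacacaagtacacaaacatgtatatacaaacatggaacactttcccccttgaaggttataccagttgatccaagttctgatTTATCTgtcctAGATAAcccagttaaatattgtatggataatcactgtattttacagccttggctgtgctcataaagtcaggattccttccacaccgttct
Fabp1, chr6:71199629-71199878, plus strand: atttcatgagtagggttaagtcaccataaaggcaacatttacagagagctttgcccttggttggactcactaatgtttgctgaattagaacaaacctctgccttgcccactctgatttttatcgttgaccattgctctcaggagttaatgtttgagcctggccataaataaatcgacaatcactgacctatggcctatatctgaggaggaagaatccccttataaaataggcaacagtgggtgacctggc
Slc2a2, chr3:28697653-28697902, plus strand: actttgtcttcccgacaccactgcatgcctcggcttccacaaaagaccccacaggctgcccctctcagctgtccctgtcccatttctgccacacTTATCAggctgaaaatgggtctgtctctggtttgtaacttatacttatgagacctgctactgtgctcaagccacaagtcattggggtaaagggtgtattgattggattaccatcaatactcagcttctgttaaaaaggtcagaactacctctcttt
Fabp6, chr11:43601563-43601812, minus strand: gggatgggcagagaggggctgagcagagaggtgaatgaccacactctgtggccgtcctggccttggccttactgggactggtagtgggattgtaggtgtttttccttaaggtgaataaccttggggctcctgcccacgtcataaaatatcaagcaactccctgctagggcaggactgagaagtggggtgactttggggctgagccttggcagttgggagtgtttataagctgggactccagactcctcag
Slc10a2, chr8:5105288-5105537, minus strand: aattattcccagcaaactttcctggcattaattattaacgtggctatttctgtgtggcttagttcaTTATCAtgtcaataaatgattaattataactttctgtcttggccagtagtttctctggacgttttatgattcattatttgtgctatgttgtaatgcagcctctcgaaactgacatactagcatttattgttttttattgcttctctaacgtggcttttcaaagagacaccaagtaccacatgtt
Lct held 2 matches, beginning 101 and 90 bases before the start, Slc2a2 held 1 at 156 and Slc10a2 1 at 184, and these windows of Fabp1 and Fabp6 held none. Over windows of 300 bases, 250 before and 50 after the start, 29.8% of 32851 promoters held a match. Among jejunal markers 8 of 21 with a promoter sequence held one, and among ileal markers 6 of 15. A match is a description of letters and not a bound site.

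The genes of sugar digestion and transport were mostly short of jejunum: 18 of 21 tested were lower and 1 higher, with a median difference of -1.81, and 17 were lower after the set adjustment. Slc2a2 read 4.10, 6.52 and 4.52 in cKI ileum and 11.27, 10.91 and 10.43 in wild-type jejunum. No arrays overlapped and the difference was 56.6-fold (-5.82 ± 0.481, adjusted p = 7.18e-07), or -6.56 on the log2 scale without cKI array 2. Control ileum lay at 4.85, 4.44 and 4.15, overlapping the knockin arrays, and cKI ileum minus control was 0.57 ± 0.481 (adjusted p = 0.596). The fructose transporter gene Slc2a5 was lower, at -3.37 ± 0.387, and Khk, for ketohexokinase, at -1.95 ± 0.197. Treh, for trehalase, was lower, at -3.27 ± 0.352, and G6pc and Pck1, for the gluconeogenic enzymes glucose-6-phosphatase and phosphoenolpyruvate carboxykinase, at -2.91 ± 0.4 and -3.34 ± 0.416. The apical glucose transporter Slc5a1 and the disaccharidase Sis were nearer, at -1.12 ± 0.272 and -1.11 ± 0.219. Mgam, for maltase-glucoamylase, did not pass, at -0.19 ± 0.123 with an interval from -0.46 to 0.07.

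Of the 28 tested genes of lipid uptake and chylomicron assembly, 20 were lower and 2 higher, with a median of -0.93, and 15 were lower after the set adjustment. Apoa4, an apolipoprotein of chylomicrons, read 10.32, 11.31 and 8.74 in cKI ileum and 13.53, 13.40 and 13.24 in wild-type jejunum, 9.62-fold lower. The Apoa4 difference of -3.27 was -3.86 without cKI array 2 and -2.58 without cKI array 3. Apoc3 was lower, at -2.58 ± 0.472 and Slc27a2, a fatty acid transporter and acyl-CoA synthetase, at -1.91 ± 0.156. Assembly genes were lower by less, Mttp (the microsomal triglyceride transfer protein) at -1.52 ± 0.184, Apob at -1.62 ± 0.291 and Sar1b (the chylomicron carrier GTPase) at -1.23 ± 0.139. Dgat1, a triglyceride synthesis enzyme, and Clps, for colipase, were the 2 higher members, at 0.54 ± 0.145 and 1.34 ± 0.206. Set-adjusted, Dgat1 was lower, at -0.94 (adjusted p = 0.0088), and Clps did not pass, at -0.53.

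In fatty acid oxidation and ketogenesis 17 of 22 tested genes were lower and 0 higher, with a median of -1.01, and 13 were lower after the set adjustment. Pdk4, the kinase that restrains pyruvate oxidation, read 3.42, 3.76 and 3.43 in cKI ileum and 7.55, 8.09 and 6.96 in wild-type jejunum. Its knockin arrays lie under the filter level of 4.91, so no fold is given for the difference of -4.0 ± 0.254. Of the oxidation enzymes, Acadvl (very long chain acyl-CoA dehydrogenase) was lower, at -1.60 ± 0.114, Ehhadh (the peroxisomal bifunctional enzyme) at -1.56 ± 0.13 and Hadha (the mitochondrial trifunctional protein) at -1.07 ± 0.103. Cpt1a, which brings long-chain acyl groups to mitochondria, did not pass, at 0.08 ± 0.0903.

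Retinoid and alcohol dehydrogenase genes included 11 lower and 1 higher of 21 tested, with a median of -0.70, and 12 lower after the set adjustment. Rbp2, the enterocyte's retinol carrier, read 9.43, 11.10 and 9.15 in cKI ileum and 12.99, 12.80 and 12.44 in wild-type jejunum, 7.2-fold lower. The Rbp2 difference of -2.85 was -3.45 without cKI array 2. Adh1, an alcohol dehydrogenase, was lower, at -3.15 ± 0.375, Lrat (lecithin retinol acyltransferase) at -1.62 ± 0.179 and Retsat (retinol saturase) at -1.61 ± 0.176. Dgat1, which also belongs to this list, was its higher member.

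Cytochrome P450 and drug metabolism genes were lower in 18 of 25 and higher in 0, with a median of -1.10, and 16 were lower after the set adjustment. Cyp2b10, a target of CAR, had the largest fall of all called genes. It read 5.28, 6.14 and 4.83 in cKI ileum and 11.49, 11.48 and 11.03 in wild-type jejunum, 60.5-fold lower (-5.92 ± 0.33, adjusted p = 1.41e-08). The arrays labelled cKO jejunum were low too, at 4.32, 4.04 and 5.18, so this gene parted wild-type jejunum from every other group. Cyp3a11 was lower, at -4.30 ± 0.525 and Cyp2c66 at -3.09 ± 0.23. Probes of the Cyp2c and Cyp3a families, and of the Gstm and Gsdmc families below, can share sequence with close paralogues, so single members are uncertain. Of 20 conjugation genes 10 were lower and 2 higher, 6 and 0 after the set adjustment, among them Gstm1, a glutathione transferase, lower, at -1.48 ± 0.201.

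Folate uptake was represented by Slc46a1, the proton-coupled folate transporter. It read 5.99, 6.56 and 6.33 in cKI ileum and 9.84, 9.82 and 9.29 in wild-type jejunum, 10.2-fold lower (-3.35 ± 0.228, adjusted p = 1.22e-07), with no overlap. Among 12 tested genes of iron, folate and calcium uptake, 6 were lower and 1 higher, with a median of -0.18, and 3 and 0 after the set adjustment. The 1 higher gene was Cybrd1, the duodenal ferric reductase, at 0.54 ± 0.137 and near the filter level.

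Of 25 tested genes of amino acid and peptide uptake, 15 were lower, against 16.3% of all genes. The 6 higher ones were a share no larger than the 25.5% of all genes. After the set adjustment 9 were lower and 4 higher, against 6.41% and 2.83% of all genes. Tmprss15, for enteropeptidase, the activator of trypsinogen, read 2.45, 2.70 and 2.68 in cKI ileum and 6.91, 7.69 and 8.04 in wild-type jejunum. Its difference was -4.94 ± 0.664 (adjusted p = 4.95e-05), and control ileum, with a mean of 2.80, was low too. Ace, a brush border peptidase, was lower, at -2.44 ± 0.397 and Slc36a1, a proton-coupled amino acid transporter, at -1.55 ± 0.259. Slc1a1, for a glutamate transporter, and Naaladl1, a peptidase, were higher by 1.09 ± 0.115 and 2.08 ± 0.208.

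Some falls were outside these groups. Reg1, a secreted lectin, read 6.86, 6.85 and 7.78 in cKI ileum and 10.87, 12.25 and 12.07 in wild-type jejunum, 23.7-fold lower. Bbox1 (carnitine synthesis) was lower, at -4.39 ± 0.187, Ephx2 (soluble epoxide hydrolase) at -3.88 ± 0.313 and Car2 (carbonic anhydrase) at -3.84 ± 0.387. Papss2, which makes the sulfate donor PAPS, was lower, at -2.73 ± 0.22. Slc5a12, a lactate transporter, read 8.58, 9.09 and 5.71 in cKI ileum and 11.42, 11.44 and 11.44 in wild-type jejunum, and its difference of -3.64 ± 0.674 was -2.60 without cKI array 3 and -4.29 without cKI array 2. Of the 15 largest falls, 4 were the small nucleolar RNAs Snord22, Snord58b, Snord61 and Snord38a, and the other 11 were called lower after the set adjustment too.

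**Figure D2:**
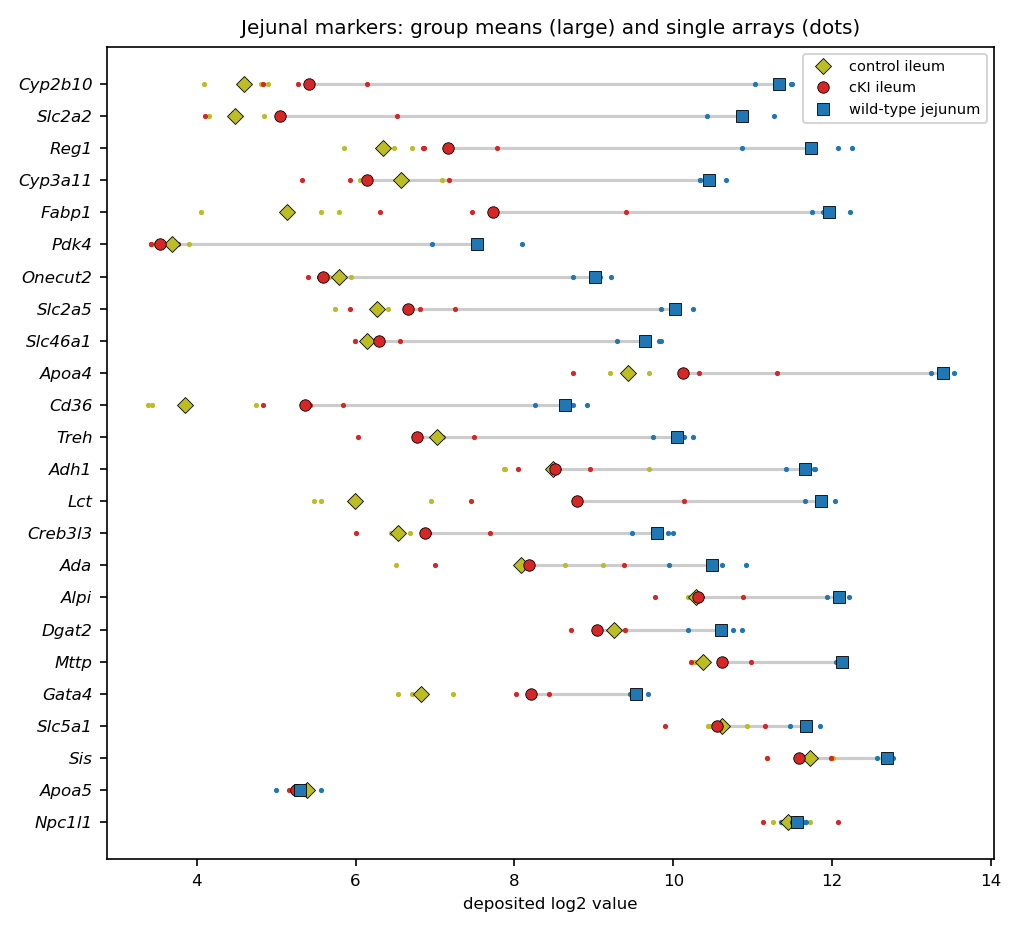
Jejunal markers on the deposited log2 scale, with group means as a diamond (control ileum), a circle (cKI ileum) and a square (wild-type jejunum) and small dots for single arrays. For most genes the cKI circle sits beside the control diamond and far below the jejunal square, as for Slc2a2 (4.48, 5.05 and 10.87), while Lct (5.99, 8.79 and 11.86) lies between.

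Among ileal markers the bile acid carriers Fabp6 and Slc10a2 were the reverse, and the list was otherwise mixed. Of 20 tested, 11 were higher in cKI ileum than in wild-type jejunum, against 25.5% over all genes, and 2 were lower, with a median of 0.68 and 7 higher after the set adjustment. The lower ones, Cubn and Guca2b, lost their call without cKI array 3.

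Fabp6 read 10.15, 10.74 and 11.19 in cKI ileum and 4.08, 4.93 and 4.18 in wild-type jejunum. This was the largest rise of all called genes, 6.30 ± 0.24 (adjusted p = 4.48e-10), with a jejunal mean of 4.40, under the filter level, and so no fold. Control ileum read 12.40, 12.56 and 12.35, and the knockin was below it, a difference of -1.75 ± 0.24 (adjusted p = 0.00499, 3.35-fold). Slc10a2 read 8.72, 8.72 and 7.90 in cKI ileum and 5.07, 4.55 and 3.73 in wild-type jejunum, a difference of 4.0 ± 0.291 (adjusted p = 2.34e-07). It too was below control ileum, which read 10.44, 9.89 and 10.12, a difference of -1.70 ± 0.291 (adjusted p = 0.016, 3.26-fold). Both genes fell against their own control and stood above jejunum on every array.

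Suox, for sulfite oxidase, lay in the same order. It read 8.62, 9.12 and 8.66 in cKI ileum, 5.96, 5.89 and 5.78 in wild-type jejunum and 10.66, 10.60 and 10.61 in control ileum, 7.58-fold above jejunum and 3.53-fold below control (adjusted p = 6.37e-09 and 3.57e-05). Nr1h4, the bile acid receptor FXR, was higher than in jejunum by 0.62 ± 0.159, and Slc51a, a subunit of the basolateral bile acid exporter, by 1.28 ± 0.187. Set-adjusted, Nr1h4 was higher by 1.31 (adjusted p = 0.00182) and Slc51a did not pass, at 0.61 (adjusted p = 0.187). The partner subunit Slc51b did not pass, at 0.33 ± 0.223 (adjusted p = 0.259).

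Fgf15, the ileal hormone that FXR induces, was not higher. It read 4.89, 5.43 and 5.0 in cKI ileum, 5.33, 4.75 and 5.15 in wild-type jejunum, 8.16, 6.56 and 8.02 in control ileum and 9.36, 6.72 and 8.40 on the arrays labelled cKO jejunum. The difference from jejunum was 0.03 ± 0.633, with an interval from -1.32 to 1.38 that is too wide to place it within 2-fold. This interval uses the spread pooled over all groups. The control and cKO arrays spread more than the cKI and wild-type jejunum arrays, which lay close together. Of 12 tested genes of bile acid recovery and FXR signalling, 4 were higher and 0 lower, with 3 higher and 2 lower after the set adjustment. Without single arrays these set-adjusted counts ran from 3 to 4 higher and from 0 to 2 lower. With no filter or the stricter filter 1 was lower. Among 10 cobalamin genes 3 were higher and 2 lower, but 1 higher and 0 lower without cKI array 3, and 0 higher and 1 lower after the set adjustment. Over all genes 25.5% were higher and 16.3% lower, and 2.83% and 6.41% after the set adjustment. Before that adjustment the higher counts of both lists were near the share of all genes.

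Other large rises included an epithelial oxidase and its maturation factor. Duox2, a dual oxidase, read 10.16, 10.13 and 10.07 in cKI ileum and 5.52, 7.19 and 7.10 in wild-type jejunum, 11.4-fold higher, and the factor's gene, Duoxa2, was 17.6-fold higher. Nos2, the inducible nitric oxide synthase, was higher by 2.56 ± 0.36. Gsdmc2, a gasdermin, read 9.85, 9.08 and 9.87 in cKI ileum and 6.30, 5.71 and 5.55 in wild-type jejunum, and was above control ileum as well, by 1.25 ± 0.26 (adjusted p = 0.0428). Plb1, a phospholipase with 7 transcript clusters, read 10.68, 11.85 and 10.32 and 5.73, 5.51 and 5.91 by its brightest cluster, and its difference was 5.24 ± 0.465 by that cluster and 5.57 by the mean of all 7. Mgat4c, a glycosyltransferase, was 8.99-fold higher and Ddah1, which degrades methylarginines, 11-fold.

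Of the 15 largest rises, 12 were called higher after the set adjustment, Fut2, Gsdmc4, 1810065E05Rik and Pla2g5 losing that call without single arrays. BC018473 and Mcpt2 did not pass it, at adjusted p = 0.973 and 0.727. Apol10a, an apolipoprotein L family member, read 8.43, 8.34 and 8.03 in cKI ileum, 3.02, 3.85 and 3.52 in wild-type jejunum and 8.57, 3.44 and 3.65 in control ileum, where array 1 stands apart. Its set-adjusted difference of 3.10 did not pass (adjusted p = 0.166) but did without control array 1, at 4.77 (adjusted p = 5.69e-06), and with array weights, at 3.85 (adjusted p = 0.0201). BC018473 had overlapping groups and lost its call against jejunum on leaving out each of the 6 arrays other than cKI array 3. Among 20 tested antimicrobial, oxidase and Reg genes, 5 were higher, a share no larger than the 25.5% of all genes, and 1, Reg1, was lower. After the set adjustment 7 were higher and 1 lower, against 2.83% and 6.41% of all genes. Hox cluster genes were mostly under the filter. Of 9 tested, 2 were higher, 4 after the set adjustment, and Hoxb5 read 4.77, 4.47 and 4.85 in cKI ileum and 3.54, 3.58 and 3.57 in wild-type jejunum.

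**Figure D3:**
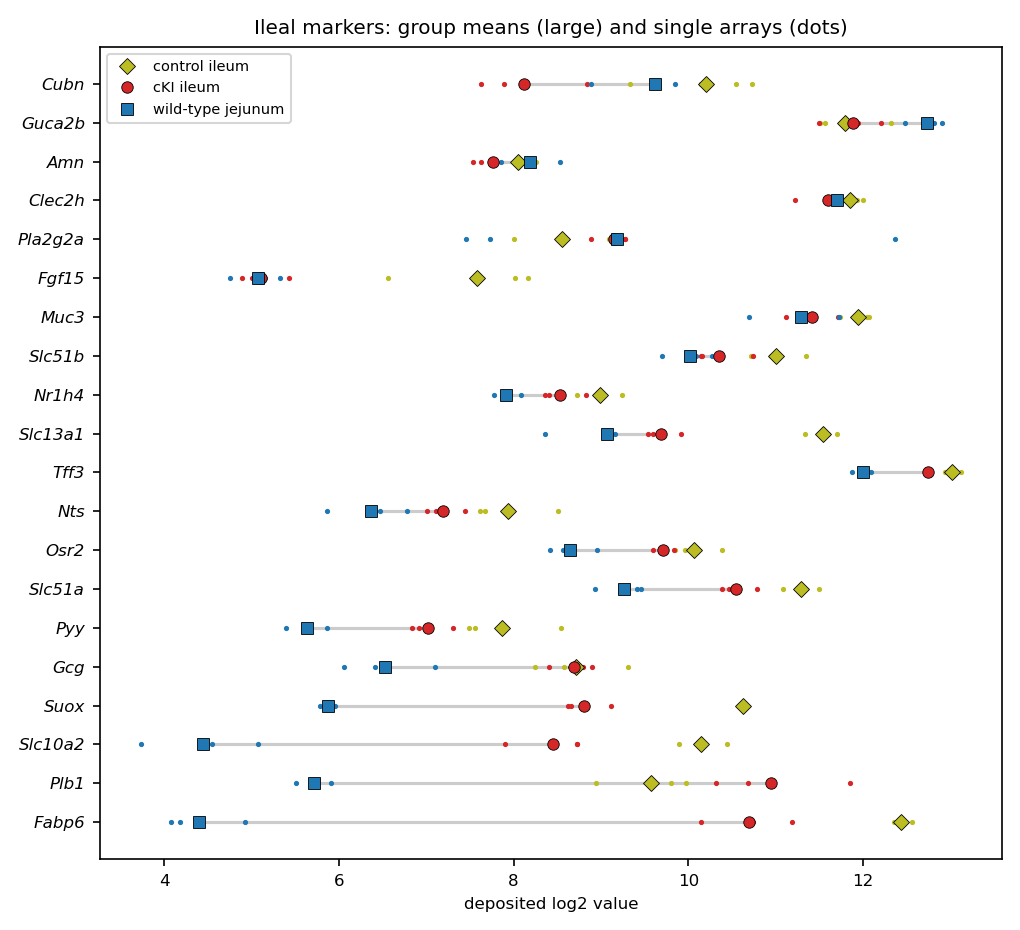
Ileal markers drawn as for the jejunal ones, with group means on the deposited log2 scale and small dots for single arrays. Fabp6 (control 12.44, cKI 10.69, jejunum 4.40), Slc10a2 (10.15, 8.45 and 4.45) and Suox (10.62, 8.80 and 5.88) lie below control and above jejunum. The Fgf15 means are 7.58, 5.11 and 5.08. The interval of its difference from jejunum, from the spread pooled over groups, is too wide to place it within 2-fold.

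Regional genes were also defined on arrays that the comparison does not use. Between the arrays labelled cKO jejunum and wild-type ileum, 159 genes (1.35% of those tested) were called higher and at least 2-fold and 49 (0.416%) lower and at least 2-fold. Of the 159, 118 (74.2%) were lower in cKI ileum than in wild-type jejunum, against 16.3% of all genes, and 5 were higher, with a median of -1.48 against 0.09. Of the 49, 17 (34.7%) were higher, against 25.5% of all genes, and 4 were lower, with a median of 0.39. The jejunal class was thus short of jejunum more often than the background, and the ileal class exceeded its background by less. In control minus wild-type ileum the 159 had a median of 0.58 and the 49 a median of -0.74. Wild-type ileum also served to define both classes, and what lies behind these medians was not tested.

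The ileal count depends on the ileum that defines it. Against control ileum in place of wild-type ileum, 244 of 309 such genes were higher (79%) and 174 of 196 jejunal ones lower (88.8%). Control ileum is the knockin's own control, so these counts are partly built in. The 309 had a median of 1.01 in control minus wild-type ileum. After the set adjustment 19 of the 309 were higher, with a median of 0.07, and 84 of the 196 were lower, with a median of -0.92. The 5 exceptions among the 159 were D17H6S56E-5, Fam151a, Mt1, Nts and Spry3, named after their values were seen, Mt1 and Nts losing their call in some refits. Fam151a read 8.14, 8.99 and 8.29 in cKI ileum and 6.24, 5.44 and 5.40 in wild-type jejunum. The 4 among the 49 were 5730408K05Rik, Fut11, Macrod2 and Rnu3a, of which 5730408K05Rik read 7.16, 6.95 and 7.12 and 10.46, 9.70 and 9.98. Of these 9 exceptions, only Mt1 was called after the set adjustment, where Fam151a was at 0.57 and 5730408K05Rik at -0.39, neither past the threshold.

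The GATA motif was more frequent in the windows around the start of the jejunal class. Of its 131 genes with a promoter sequence, 72 (55%) held a match, against 2073 of 9428 genes tested (22%) and 6 of 34 (17.6%) in the ileal class. The marker lists did not part in this way, with a match in 8 of 21 jejunal and 6 of 15 ileal markers. These shares are a description of the 300-base windows and were not tested.

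**Figure D4:**
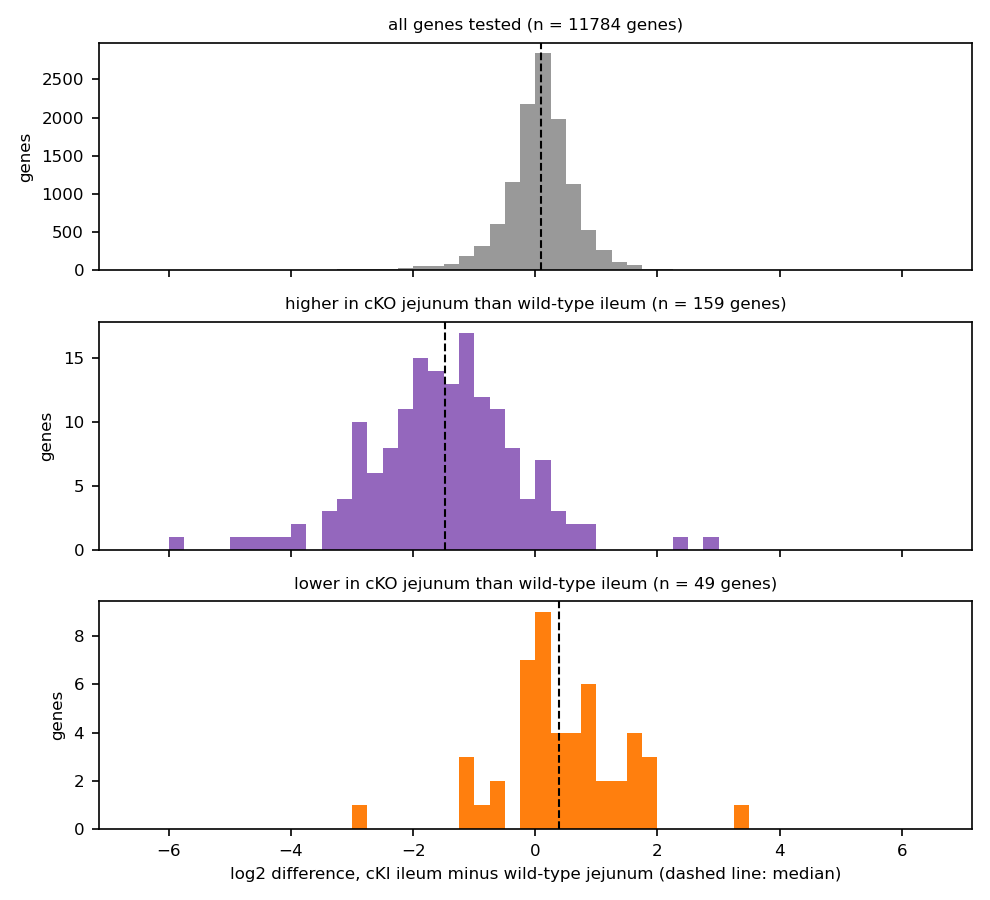
Histograms of the log2 difference, cKI ileum minus wild-type jejunum, for all 11784 genes tested and for the 159 jejunal and 49 ileal genes defined on the arrays labelled cKO jejunum and wild-type ileum. All genes centre near 0.09, the jejunal genes lie mostly to the left (median -1.48) and the ileal genes to the right (median 0.39).

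Genes that had reached the jejunal level were sought among the 491 genes (4.17%) higher by at least 2-fold in wild-type jejunum than in wild-type ileum. Since these were chosen with the same jejunal arrays, their shortfall is a description: 423 were lower in cKI ileum, 3 higher, and 63 had a 95% interval wholly within 2-fold of jejunum, against 79.2% of all genes. The knockin's own contrast, cKI against control ileum, shares no arrays with that choice. It called 40 genes higher (0.339%) and 50 lower (0.424%), and 17 of the 491 were among the 40, with Cyp4f13 1 of the 50.

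The 17 were Bpnt1, Casp6, Fam13a, Gata4, Gpx1, Gstm6, Gstm7, Hsd17b6, Il33, Lct, Lmcd1, Prss12, Rmdn1, Rragd, Slc16a12, Tmem64 and Ugt2a3. Lmcd1, which encodes a LIM protein that interacts with GATA6, read 5.45, 5.42 and 5.73 in cKI ileum, 5.95, 5.82 and 5.47 in wild-type jejunum and 4.47, 4.53 and 4.44 in control ileum. It was above control by 1.05 ± 0.159 (adjusted p = 0.00899) and within -0.55 to 0.13 of jejunum. Knockin and jejunal arrays of Lmcd1 overlapped, and knockin and control arrays did not.

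Prss12, a secreted serine protease, read 5.72, 5.91 and 5.49 in cKI ileum, 5.92, 5.60 and 5.97 in wild-type jejunum and 4.86, 4.82 and 4.72 in control ileum, with an interval from -0.45 to 0.21 against jejunum. Slc16a12, a monocarboxylate transporter family member, read 5.70, 5.90 and 6.26 in cKI ileum and 5.79, 6.40 and 6.21 in wild-type jejunum, with an interval from -0.58 to 0.22. Their rises over control were 0.91 ± 0.155 and 1.08 ± 0.186 (adjusted p = 0.016 and 0.0163). Their groups overlapped with jejunum and not with control. These 3 transcripts are low, at 5.42 to 6.40 on the log2 scale in knockin and jejunum, and their set-adjusted differences, -0.21, -0.12 and 0.06, did not pass either.

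Other genes of the 491 lay within 2-fold of jejunum without passing against control ileum. Cck and Gip, for the hormones cholecystokinin and glucose-dependent insulinotropic polypeptide of proximal endocrine cells, were examples. Gip read 8.77, 8.88 and 8.74 in cKI ileum, 8.68, 8.77 and 8.45 in wild-type jejunum, 7.67, 9.15 and 7.83 in control ileum and 5.57, 5.43 and 6.41 in wild-type ileum. Its control was thus already near jejunum, and the set-adjusted difference was -2.25 (adjusted p = 0.00471). Without wild-type jejunum array 2 the interval of Gip against jejunum ran from -0.54 to 1.00. Cck was also called lower after the set adjustment. That call was lost in many refits, as with no filter on low values, at -0.97 (adjusted p = 0.0584).

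Rragd, for a GTPase of amino acid sensing, and Ugt2a3, a glucuronosyltransferase, were intermediate like Lct. Rragd rose over control 2.21-fold (1.14 ± 0.16, adjusted p = 0.00547) and was 1.61-fold below jejunum (-0.69 ± 0.16, adjusted p = 0.00329). Of the 233 genes (1.98%) higher by at least 2-fold in wild-type ileum than jejunum, 168 were higher in cKI ileum than in jejunum and 55 within 2-fold. The knockin contrast called 24 of them lower than control, Fabp6, Slc10a2 and Suox among them, and 1, Gsdmc2, higher. Calls against control ileum were not refitted with arrays left out.

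Cholesterol synthesis differed from the other lipid pathways, with 13 of 21 genes higher in cKI ileum than in wild-type jejunum and 2 lower. The median was 0.49, and 12 were higher and 0 lower after the set adjustment. Sqle, for squalene epoxidase, read 8.89, 9.03 and 8.97 in cKI ileum and 7.24, 7.27 and 7.0 in wild-type jejunum, 3.46-fold higher (1.79 ± 0.166, adjusted p = 2e-06). Fdps, for farnesyl diphosphate synthase, and Fdft1, for squalene synthase, were higher by 1.51 ± 0.133 and 1.26 ± 0.144. Srebf2, the sterol-sensing transcription factor, was higher by 0.90 ± 0.107, while Insig1, its retention partner, did not pass, at -0.17 ± 0.165.

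Goblet cell markers were higher in both contrasts, and the counts called in the other secretory and crypt lists differed between the contrasts. Of 17 goblet cell markers 12 were higher and 0 lower, with a median of 0.70 and 11 higher after the set adjustment. Agr2, a disulfide isomerase of mucin folding, read 12.58, 12.29 and 12.54 in cKI ileum and 11.13, 11.08 and 11.10 in wild-type jejunum, and Atoh1, the secretory lineage factor, was higher by 1.15 ± 0.0981. The mean over the goblet list was 9.28 to 9.34 in cKI ileum arrays, 8.48 to 8.72 in wild-type jejunum and 9.53 to 9.60 in control ileum. In these bulk samples more cells of a type and more RNA per cell cannot be told apart.

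Paneth cell markers were higher in 9 of 11, but in only 1 of 11 after the set adjustment. Enteroendocrine markers were higher in 6 of 16 and lower in 1, but after the set adjustment 2 were higher and 2 lower, and the median turned from 0.46 to -0.16. Gcg, for the proglucagon of distal endocrine cells, read 8.40, 8.79 and 8.90 in cKI ileum and 6.41, 7.10 and 6.06 in wild-type jejunum, and was higher after the set adjustment, by 1.41 (adjusted p = 0.0402), a call lost on leaving out cKI array 2 or 3 or array 1 or 3 of any of the other 3 groups in it. Pyy, for a distal gut hormone, was higher by 1.39 ± 0.267, and set-adjusted it did not pass, at 0.82 (adjusted p = 0.214), but did without control array 2, at 1.16 (adjusted p = 0.0349), and with array weights, at 1.00 (adjusted p = 0.0313). Among 9 tuft cell markers 0 were higher and 2 lower, Ltc4s at -1.93 ± 0.151, and Avil losing its call in some refits. Over all genes 25.5% were higher and 16.3% lower, and 2.83% and 6.41% after the set adjustment.

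Crypt stem cell markers were higher in 15 of 19 and lower in 0, and proliferation markers in 22 of 24 and 0, against 25.5% of all genes higher. Lgr5, the crypt base stem cell receptor, read 7.75, 7.78 and 7.93 in cKI ileum and 6.36, 6.23 and 6.47 in wild-type jejunum. Cdk1, the mitotic kinase, read 8.23, 8.16 and 8.70 and 6.67, 6.74 and 6.86. After the set adjustment 5 stem cell markers were higher, but 1 without cKI array 3, wild-type jejunum array 2 or wild-type ileum array 3. They were 2 or 3 without any of 6 others. Of 24 proliferation markers, 0 were called by limma (5 higher and 0 lower at an unadjusted p below 0.05, and 3 higher and 0 lower with array weights). The set-adjusted contrast has larger standard errors, so a lost call alone does not show a lost difference. The median moved from 0.48 to 0.43 for stem cell markers and from 0.83 to 0.46 for proliferation markers. What part the set has in these differences was not tested. The mean over the proliferation list was 8.26 to 8.66 in cKI ileum, 7.90 to 8.20 in control ileum and 7.46 to 7.72 in wild-type jejunum.

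Interferon response genes were lower in 10 of 14 and higher in 0, with a median of -1.38 and 13 lower after the set adjustment, 8 without wild-type jejunum array 3. Rsad2, for viperin, read 5.15, 5.18 and 4.43 in cKI ileum and 7.19, 7.06 and 7.69 in wild-type jejunum, and Irf7, an interferon-induced transcription factor, was lower, at -2.22 ± 0.366. The mean over the list was 5.88 to 6.54 in cKI ileum, 7.41 to 8.16 in wild-type jejunum, 6.48 to 8.12 in control ileum and 5.85 to 6.40 in wild-type ileum. T and NK cell markers had list means of 5.25 to 6.61 in cKI ileum and 6.18 to 6.97 in wild-type jejunum. Of 10 tested, 2 were lower, near the 16.3% of all genes. That count was 4 without cKI array 2, 0 without cKI array 3 or wild-type jejunum array 1, and 1 without cKI array 1 or wild-type jejunum array 2. After the set adjustment 2 were lower, against 6.41% of all genes, and 0 to 7 without single arrays, with 7 without cKI array 2. The part of these markers in the result was not tested.

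Markers of cells other than epithelium were compared as well. Of 16 stromal and smooth muscle markers 5 were higher and 0 lower, and 1 was higher after the set adjustment. Over all genes 25.5% were higher, and 2.83% after the set adjustment. The 5 became 3 without cKI array 2, wild-type jejunum array 1 or wild-type jejunum array 2 and 2 under the stricter filter, but 9 with the replicate block in the 6 arrays alone and 10 with array weights. The mean over this list was 5.45 to 5.84 in cKI ileum, 4.95 to 5.15 in wild-type jejunum and 5.74 to 6.91 in control ileum, and its part in the results was not tested. Among 7 tested genes of MHC class II presentation 2 were higher, among 8 B and plasma cell markers 2, and among 10 myeloid markers 3 with 1 lower, against 25.5% of all genes higher. The MHC count was 4 in the 6 arrays alone, with or without the replicate block, and the B and plasma cell count was 4 with that block and 1 without cKI array 3 or wild-type jejunum array 3. Of 10 pan-epithelial and enterocyte markers 5 were lower and 2 higher, with list means of 10.92 to 11.41 in cKI ileum and 11.24 to 11.38 in wild-type jejunum, and between 1 and 5 were lower without single arrays, 1 without cKI array 3. Isolation stress genes were lower in 6 of 16 and higher in 0, but lower in 2 without cKI array 3 or without wild-type jejunum array 1, and in 1 after the set adjustment. Over all genes 16.3% were lower, and 6.41% after the set adjustment.

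**Figure D5:**
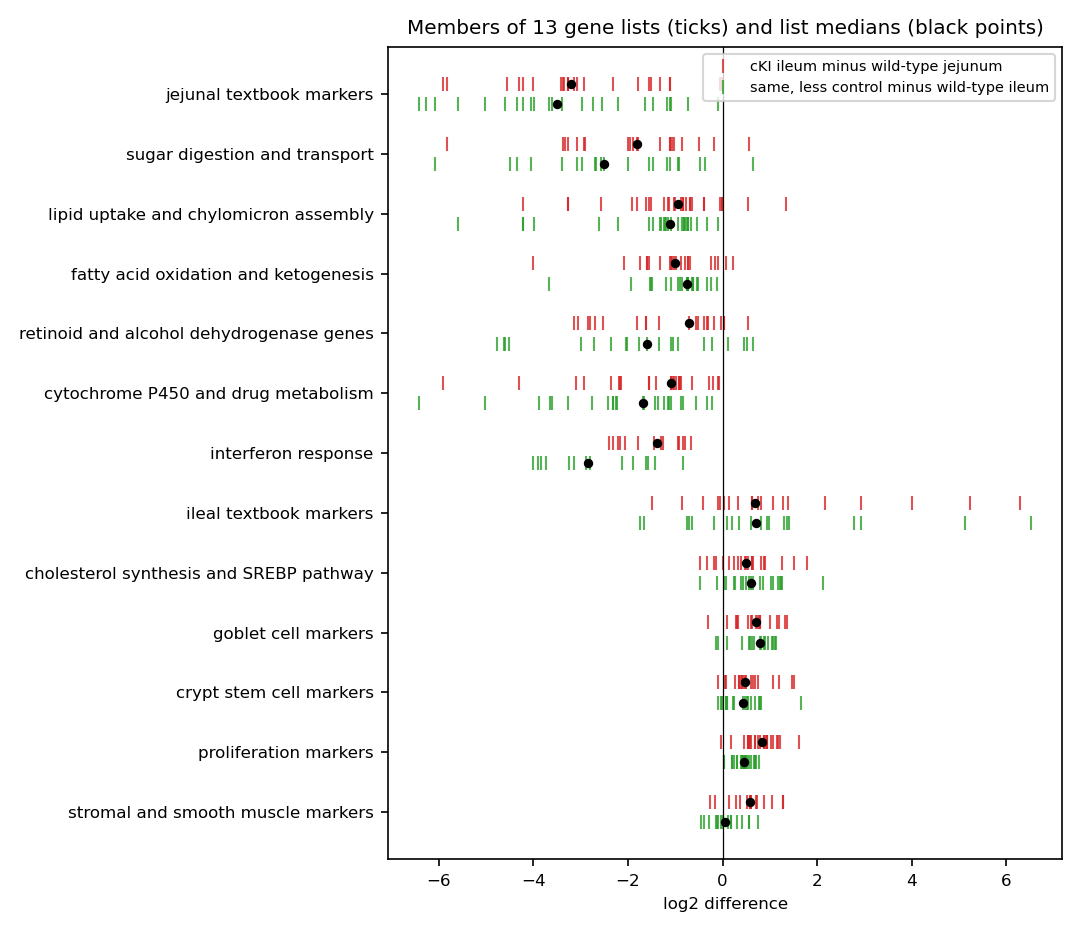
Log2 differences of the tested members of 13 gene lists, cKI ileum minus wild-type jejunum (red ticks) and set-adjusted (green ticks), with a black mark at each median. The sugar list (median -1.81) and the P450 list (median -1.10) lie to the left of 0, cholesterol synthesis (0.49) and goblet markers (0.70) to the right, and proliferation moves from 0.83 to 0.46 with the set adjustment.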

How the data were processed

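Transcript levels of isolated mouse intestinal epithelium were deposited by the authors as log2 values, 1 per transcript cluster (35556) and array, made with Partek per the submitters' processing notes. Its version, the background correction and the normalization are not given in the sources used here, and the log2 scale was read from the range of the values, 0.89 to 13.9. Of the clusters, 21789 had exactly 1 gene symbol in the platform annotation, 1621 had several and 12146 had none here. Those without exactly 1 symbol were tested apart. The brightest cluster by mean stood for each of the 999 symbols that have several. Testing required at least 1 group mean above 4.91, the median of the whole table. This kept 11784 genes and dropped 8154, and folds are left out where either group mean is below that level.

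The 15 arrays entered a single limma fit (version 3.58.1 under R 4.3.3, lmFit and eBayes) with a coefficient for each of the 5 groups and 10 residual degrees of freedom, so the spread is pooled over groups. Two-sided p-values were adjusted by Benjamini-Hochberg across the 11784 genes, and genes under 0.05 were called. A gene lay within 2-fold when the 95% interval of its log2 difference was inside -1 to 1. The fit was tested on simulated data.

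The rule for named genes took Gata4, Gata5, Gata6, Lct, Fabp1 and Cd36, the 15 called genes with the largest rise and the 15 with the largest fall, from each list the 6 members of lowest p or fewer, other list members for any value, and 10 regional genes within 2-fold of jejunum with the largest cKI minus control difference. The lists and groups were chosen with earlier results of these data known. Equal replicate numbers did not pair the cKI ileum and wild-type jejunum arrays, and the correlation was not checked between other groups. Alternatives were other scalings, filters, cluster rules, array weights, replicate blocks, other intervals and leaving out single arrays.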

Additional observations from a re-analysis of the deposited data

Results flagged for a closer look

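Transcript clusters without exactly 1 gene symbol take no part in the gene counts, yet they carried signal. Of 6571 such clusters tested in the same way, 1280 were called higher in cKI ileum than in wild-type jejunum and 880 lower. They are unnamed here and are given as counts only.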

How the results depend on the processing

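The counts of genes higher in cKI ileum than wild-type jejunum and of genes lower in cKI ileum than wild-type jejunum stayed within 1.5 times of 3001 and 1923 under each alternative, with 2294 to 2766 higher and 1527 to 1868 lower when 1 of the 6 arrays was left out, 2493 and 2347 with quantile normalization and 2592 and 2013 with arrays centred on their median. Without 1 array, leave-outs of control and wild-type ileum having been added after the data were seen, the counts of genes higher in cKI ileum than wild-type jejunum, set-adjusted, ran from 229 to 339. Those of genes lower in cKI ileum than wild-type jejunum, set-adjusted, ran from 526 to 856, the genes within 2-fold from 8804 to 9353, and the Gata4 difference from -1.44 to -1.23. The jejunal genes of the other arrays lower in cKI ileum ran from 103 to 126, and the ileal genes of the other arrays higher in cKI ileum from 13 to 16. Array weights, which count unlike arrays less, raised the set-adjusted counts to 815 higher and 1370 lower, and the cause was not tested. The number of genes within 2-fold was 17339 with no filter and 4887 with a stricter one, which test more and fewer genes, and 5394 lay within 1.5-fold. Ileal genes of the other arrays that were higher numbered 10 under the stricter filter, which tests fewer genes, and 244 when defined against control ileum. Top2a, higher at 0.54 by its brightest cluster, was at -0.47 by the mean of its clusters. Deviations of arrays with equal replicate numbers correlated by -0.057, 0.015 and 0.101, so the numbers did not pair cKI ileum with wild-type jejunum. With the number as a replicate block over all 15 arrays, 2951 genes were higher and 1900 lower (344 and 732 set-adjusted), 9350 lay within 2-fold, and the Gata4 difference was -1.33. In the 6 arrays alone the block gave 2865 higher and 1856 lower. Of 520 named genes refitted, 369 kept their direction and side of the threshold throughout, 74 lost a call in some alternative and 77 gained one, and 112 changed their call without 1 array. Set-adjusted differences rest on 12 arrays and assume that the sets differ alike in ileum and jejunum, which was not tested. Array signal near 4.91 limits the low genes.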
